A study of Mus musculus with 21 samples.

Results

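The comparison described here set agouti-related protein (AGRP) neurons against pro-opiomelanocortin (POMC) neurons of the hypothalamic arcuate nucleus in mice with free access to food. It used 10 of the 21 RNA-Seq libraries of the series, chosen by their labels as fed, and all 35266 genes of the count table. The 5 AGRP libraries came from mice of the NPY-hrGFP line and the 5 POMC libraries from mice of the Pomc-GFP line, both on the C57BL/6J background. All mice were males, at postnatal day 46 to 55 for AGRP and 51 to 56 for POMC, and each library held the pooled cells of 1 mouse, 87 to 214 of them for AGRP and 72 to 108 for POMC. Green cells were picked by hand from digested arcuate slices. The other 11 libraries, 6 AGRP and 5 POMC from mice of the same lines without food for 24 h (food-deprived, FD), shared the fit and served as a second set of animals. The AGRP cells were recognised by a reporter under *Npy* and not *Agrp* control, so each cell type was studied in 1 mouse line, and a difference between the lines and a difference between the cell types cannot be told apart. In pooled cells, fewer cells that express a gene and less RNA per cell cannot be told apart either.

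AGRP and POMC neurons lie intermingled in the arcuate nucleus and have opposite roles in the control of body weight. AGRP neurons release AGRP, neuropeptide Y and GABA and promote feeding. POMC neurons cut POMC into melanocortins and other peptides and restrain feeding, and AGRP acts as an inverse agonist at the melanocortin receptors that POMC products activate. Both cell types carry receptors for leptin and insulin.

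The fed libraries held 14864180 to 19920638 gene counts for AGRP and 18228116 to 26296967 for POMC. Levels are given as normalized CPM, the usual unit of counts over library depth, with libraries scaled by the trimmed mean of M values (TMM). At these depths 3 counts, the limit that a count of 0 allows, corresponded to 0.151 to 0.202 CPM in AGRP and 0.114 to 0.165 CPM in POMC libraries, for counting error only. The depth thus limits statements on genes near or under these levels. Genes detected numbered 18303 ± 618 (SD, n = 5) in AGRP and 17138 ± 546 in POMC libraries (adjusted p = 0.079 by an exact permutation test). Of 24 markers of astrocytes, oligodendrocytes, microglia and vessels, 8 were under 1 CPM in every fed library and *C1qa*, *Tmem119* and *Cldn5* had no count. None of the 17 tested passed by edgeR (2 at an unadjusted p under 0.05), against *Rgs5* by DESeq2 and *Mag* by limma-voom. Their summed level was 135 to 236 CPM in AGRP and 169 to 318 CPM in POMC libraries, most of it *Slc1a2* and *Mbp*. Oligodendrocyte markers alone summed to 80.6 to 117 and 66.0 to 97.2 CPM (adjusted p = 0.105, exact permutation test). As deposited TPM, corrected for transcript length, they were at 56.8 to 79.4 and 34.5 to 48.4 (adjusted p = 0.029, same test). Astrocyte markers went the other way, at 22.2 to 125 and 87.1 to 243 CPM (adjusted p = 0.247, same test). The summed level of 12 markers of other hypothalamic neurons was 10.9 to 17.4 CPM in AGRP and 148.7 to 219.7 CPM in POMC libraries, and nearly all of the latter was *Slc18a2*.

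Of 16513 genes tested, 1250 differed between AGRP and POMC neurons of fed mice at q under 0.05 (7.57%), with 550 above in AGRP (3.33%) and 700 above in POMC neurons (4.24%). Here q is the adjusted p of the edgeR quasi-likelihood test over all genes tested, and log2 fold changes are AGRP over POMC, with their standard error (SE). Differentially expressed genes (DEG), which also had to exceed 1 on the log2 scale and 20 CPM in a group, numbered 663 of the 8205 genes at that level (8.08%), of which 282 favoured AGRP (3.44%) and 381 favoured POMC neurons (4.64%). That level was the mean CPM before TMM scaling in any of the 4 groups, FD mice included. The 5 AGRP libraries did not overlap the 5 POMC libraries for 570 of these DEG, against 1047 of the 8205 genes (12.8%). The difference exceeded 3 on the log2 scale for 158 DEG, 70 of them higher in AGRP and 88 in POMC neurons. The median over all genes tested was −0.01. When gene levels were scaled per sorted cell by the External RNA Controls Consortium (ERCC) spike-in in place of TMM, 156 DEG were called, 154 of them among the 663. Of 100 named genes that passed, 56 did not pass with that scaling and all 100 kept their direction. For 33 of these 56 the log2 fold change was at least as large in size with ERCC scaling as with TMM, while the median SE over the 56 was 0.81 against 0.25. Relative to gene counts, ERCC counts were 0.274% in AGRP replicate 1 (1 µl, 142 cells) and 0.297% in replicate 5 (4.28 µl, 214 cells). They were 16.0% in replicate 2 (10 µl, 102 cells), so they were not in proportion to the labelled volume. Replicate 5 is labelled with ERCC mix 2 and the other fed libraries with mix 1, and the scaling took no account of the mix.

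The genes that define the cells separated the groups. *Agrp* (ENSMUSG00000005705, chromosome 8, 105566698 to 105637393 in mm10) was at 796, 1309, 764, 470.3 and 722 CPM in AGRP and 3.04, 1.52, 2.95, 2.87 and 9.45 CPM in POMC libraries. *Npy* (ENSMUSG00000029819, chromosome 6, 49822710 to 49829507) was at 1794, 3194, 2061, 1589 and 1854 CPM in AGRP and 0.221, 0.037, 5.11, 7.75 and 15.7 CPM in POMC libraries. *Pomc* (ENSMUSG00000020660, chromosome 12, 3954951 to 3960618) was at 13, 19.8, 19.7, 4.55 and 5.79 CPM in AGRP and 6496, 8196, 3503, 3719.6 and 4823 CPM in POMC libraries. The deposited locus of *Agrp* overlaps *Ctcf* and *Fam65a*, neither of which passed the test (q = 0.957 and 0.832), and that of *Nkx2-1* overlaps *Gm26973*. No library of one type came near the other for these genes, and the low group was above the limit of 3 counts except for *Npy* in POMC replicate 2, while in POMC replicate 1 it was only just over it. *Cartpt*, whose CART peptide also restrains feeding, was at 29.8, 42.6, 28.4, 24 and 29.1 CPM in AGRP libraries. In POMC libraries it was at 4460.4, 4348, 814, 779 and 1140.0 CPM, so that replicates 1 and 2 stood well above the other three. Per length, as deposited TPM, which corrects counts for transcript length, *Npy* averaged 12896 ± 3277 and *Agrp* 3455 ± 1153 in AGRP, and *Pomc* 16029 ± 4651 and *Cartpt* 7639 ± 5741 in POMC libraries (mean ± SD, n = 5).

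The labels' reporters used control regions of *Npy* and *Pomc*, so the 250 bases before the RefSeq starts of these genes (GRCm38.p6, plus strand, chr6:49822460-49822709 and chr12:3954695-3954944) are shown. Capitals mark TAAT, a core bound by many homeodomain proteins such as Otp, CANNTG, the E-box bound by factors such as Nhlh2, and TATAAA, each on either strand.
Npy: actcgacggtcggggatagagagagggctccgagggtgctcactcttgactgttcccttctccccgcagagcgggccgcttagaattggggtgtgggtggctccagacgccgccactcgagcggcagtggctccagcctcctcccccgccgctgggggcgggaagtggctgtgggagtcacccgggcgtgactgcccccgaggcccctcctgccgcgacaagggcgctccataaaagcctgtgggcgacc
Pomc: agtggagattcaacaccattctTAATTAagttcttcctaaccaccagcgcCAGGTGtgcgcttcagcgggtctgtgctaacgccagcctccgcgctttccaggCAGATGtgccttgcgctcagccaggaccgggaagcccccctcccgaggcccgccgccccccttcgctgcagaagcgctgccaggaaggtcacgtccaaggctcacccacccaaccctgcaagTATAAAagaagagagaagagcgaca
The *Pomc* window held 2 overlapping TAAT, 2 CANNTG and 1 TATAAA, and the *Npy* window held 0 of each. Over 32817 RefSeq windows of this length, 54.9% held TAAT, 66.2% CANNTG and 12.4% TATAAA.

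**Figure D1:**
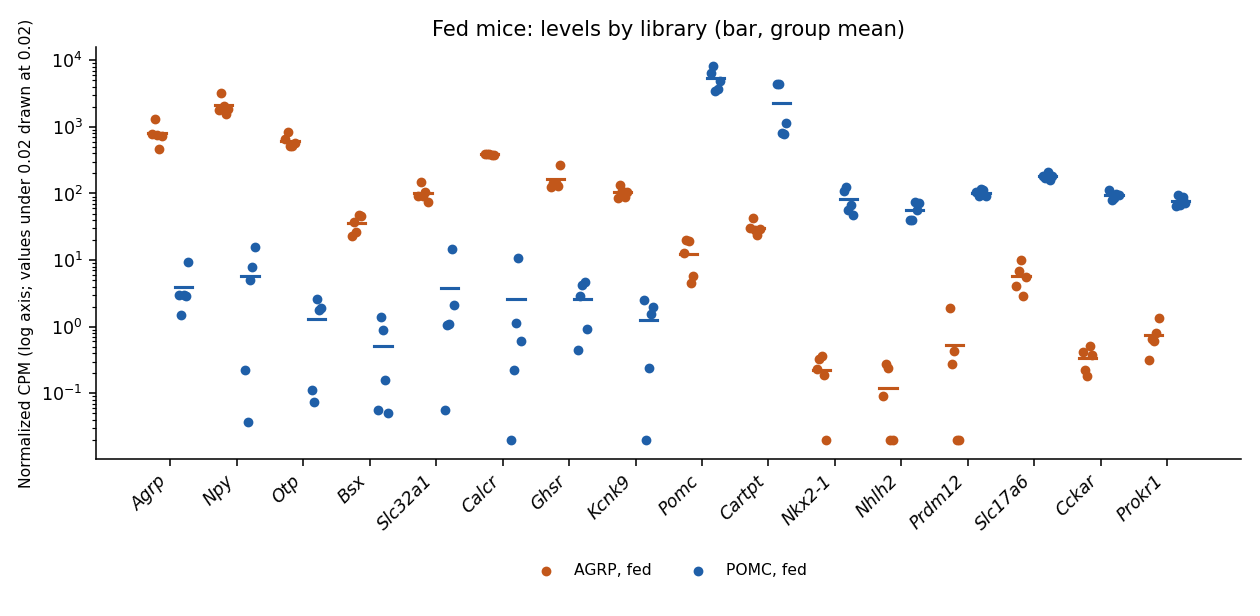
Normalized CPM (log axis) of 16 named genes in the 5 AGRP (orange) and 5 POMC (blue) fed libraries, with a bar at each group mean and values under 0.02 CPM drawn at 0.02. The 2 groups are separate for every gene shown, and POMC replicates 1 and 2 form the upper pair for Cartpt at 4460 and 4348 CPM.

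A pair of genes beside *Pomc* also separated the groups. *Efr3b*, which encodes a plasma membrane anchor for a phosphatidylinositol 4-kinase, was at 115, 92.5, 118, 84.6 and 86.6 CPM in AGRP and at 9837, 9521, 21580.0, 18086 and 20459 CPM in POMC libraries, a log2 fold change of −7.32 (SE 0.30, q = 7.03e-17). *Dnajc27*, which encodes a small GTPase with a J domain, was at 117, 93.8, 92.5, 112 and 106 CPM in AGRP and at 5380.5, 4267, 9865, 9450.2 and 9180.0 CPM in POMC libraries, a log2 fold change of −6.19 (SE 0.28, q = 4.41e-16). Both lie next to *Pomc*: *Efr3b* (ENSMUSG00000020658, chromosome 12, 3962554 to 4038915) begins 1.94 kb after the end of *Pomc*, and *Dnajc27* (ENSMUSG00000020657, chromosome 12, 4082574 to 4110612) begins 122 kb after it. The pair took 1.42 to 3.10% of gene counts in POMC and 0.0197 to 0.0254% in AGRP fed libraries. All POMC libraries and no AGRP library came from the line whose reporter used control regions of *Pomc*. For this pair the mouse line and the cell type thus cannot be told apart.

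Within 300 kb of *Pomc* on either side the table held 11 genes, 10 of them tested, and among the 8 tested neighbours besides *Efr3b* and *Dnajc27* only *Ncoa1*, a nuclear receptor coactivator, passed the test, higher in AGRP neurons at 0.61 (q = 0.0239), and it passed in 4 of the 10 fits lacking 1 fed library (q 0.00252 to 0.0816). *Dnmt3a*, a DNA methyltransferase before *Pomc*, was at 106 to 145 CPM in AGRP and 66.3 to 114 CPM in POMC libraries. *Adcy3*, an adenylyl cyclase beyond *Dnajc27*, was at 15 to 30.4 and 10.1 to 24.9 CPM. Around *Npy* the nearest gene tested, *Mpp6*, gave 0.87 (q = 0.0864). *Efr3b* and *Dnajc27* were also far apart in FD mice, at 168 to 288 CPM in AGRP and 7442 to 17390.0 CPM in POMC libraries for *Efr3b*, with a log2 fold change of −5.96 (q = 2.04e-16), and at −6.06 (q = 1.4e-16) for *Dnajc27*.

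Among POMC libraries these 2 genes split by the amount of ERCC spike-in RNA added, a set that also differed in age. *Efr3b* was at 17140 to 21580 CPM in the 6 libraries with 1 µl, fed or FD, at 9521 and 9837 CPM in the 2 fed libraries dosed by cell number (replicates 1 and 2), and at 7442 and 7780 CPM in the 2 FD libraries with 10 µl. *Dnajc27* was at 8621 to 9910 CPM, 4267 and 5380 CPM, and 4206 and 4444 CPM in the same libraries, so that no library of the 1 µl set overlapped the others. These libraries came from mice at postnatal day 55 to 56, 51 and 54, respectively, and the part of the spike-in, the age or the preparation in these levels was not tested. In AGRP libraries *Efr3b* stayed between 84.6 and 288 CPM whatever the spike-in. *Cartpt* had another pattern, with 4348 and 4460 CPM in the 2 cell-number libraries and 436 to 1140 CPM in all other POMC libraries. The fed log2 fold change of *Cartpt* was −6.23, and −4.89 without these 2 libraries. Without POMC replicates 1 and 2, 533 DEG were called and 661 of the 663 kept their direction. In the cell-number set alone, with 2 libraries per cell type, 662 kept their direction. The libraries of both fits had also helped to choose the 663, so the kept directions are not separate support.

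**Figure D2:**
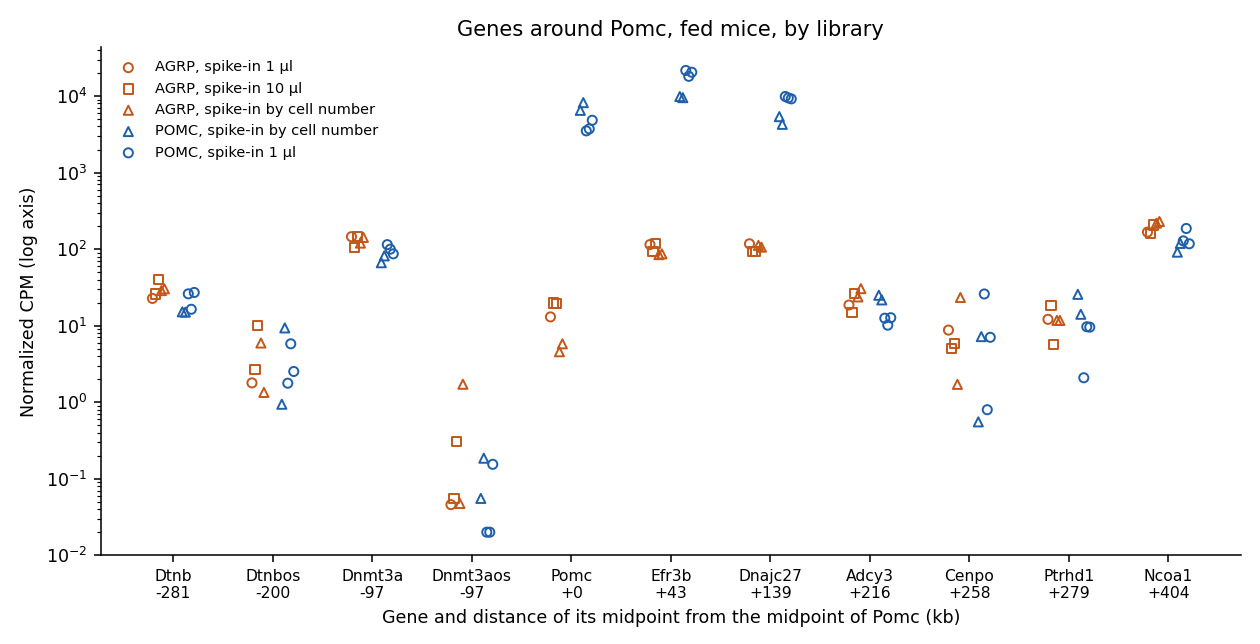
Normalized CPM (log axis) of the tested genes within 300 kb of Pomc in each fed library, ordered along the chromosome with the distance between gene midpoints in kb. AGRP libraries are orange, POMC libraries blue, and the marker shape gives the spike-in set. Efr3b and Dnajc27 are near 100 CPM in all AGRP and at 4267 CPM or more in all POMC libraries, with the 1 µl POMC libraries above the others.

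Peptide precursors differed in both directions. Of 31 tested precursors, 7 were higher in AGRP and 8 in POMC neurons (48.4% called, against 7.57% of all genes tested). A further 25 listed precursors did not pass the count filter. Beside *Agrp* and *Npy*, AGRP neurons had more *Sst*, the somatostatin precursor, at 210.0, 109, 134, 344 and 395 CPM against 0.387, 4.37, 29.4, 39 and 0.308 CPM, a log2 fold change of 4.02 (SE 0.86, q = 0.00212). For *Sst* it was 4.77 without POMC replicate 4 and 3.38 (q = 0.0221) without POMC replicates 1 and 2. POMC neurons had more *Pdyn*, the dynorphin precursor, at 156, 232, 197, 221 and 164 CPM against 9.57, 4.24, 15.5, 9.91 and 5.46 CPM, a log2 fold change of −4.44 (SE 0.36, q = 1.41e-10). *Tac1*, the precursor of substance P and neurokinin A, was at 39.2, 46.7, 23.7, 14 and 5.39 CPM in POMC libraries and had 2 counts in all AGRP libraries together, and its ratio of POMC to AGRP was 1300.4 with a 95% counting interval of 360.0 to 10738. *Cbln4*, a cerebellin, was at 40 to 85.2 against 2.7 to 16.7 CPM, *Penk*, the enkephalin precursor, at 0 to 1.95 against 5.85 to 12.5 CPM, and *Nppc*, C-type natriuretic peptide, at 0.237 to 1.22 against 5.9 to 29.5 CPM. *Rln3*, relaxin 3, was under 3 CPM in AGRP libraries with no count in POMC libraries and was at least 58.1-fold higher in AGRP neurons, against 3 counts over the group. *Grp*, *Edn3*, *Gal* and *Galp* were also called, with *Gal* and *Edn3* overlapping between groups.

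Of 22 tested genes of peptide storage and processing, 7 were higher in POMC and 0 in AGRP neurons, where edgeR called 0 also at an unadjusted p under 0.05 and DESeq2 and limma-voom called 0. The share called was 31.8%, against 7.57% of all genes tested, and the median log2 fold change was −0.43, against −0.01. *Chgb*, a granin that helps form dense-core vesicles, was at 398, 369.9, 316, 427 and 371 CPM in AGRP and 634, 890.0, 1189, 1399 and 1603 CPM in POMC libraries, a log2 fold change of −1.60 (SE 0.20, q = 7.44e-07). *Vgf*, a granin-family precursor, was at 40.1, 82.6, 30.6, 33.6 and 93.8 CPM in AGRP and 734, 831, 388, 319 and 545 CPM in POMC libraries, a log2 fold change of −3.33 (SE 0.32, q = 6.33e-09). *Cpe*, the carboxypeptidase that trims peptides after the convertases have cut, was at 780.4, 590.4, 502, 307 and 325 CPM in AGRP and 782, 843, 1245, 1213 and 1155 CPM in POMC libraries, with the highest AGRP library only just below the lowest POMC library. *Pcsk1*, the convertase that makes ACTH from POMC, gave −0.74 (q = 0.0426) and passed in only 3 of the 10 fits that left out 1 fed library (q 0.0363 to 0.128), while *Pcsk2*, the second neuronal convertase, gave −0.23 (q = 0.57) with an unadjusted 95% interval of −0.58 to 0.13. *Chga*, *Pcsk5* and *Qpct* made up the 7.

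The vesicular transporters for GABA and glutamate differed in opposite directions, while the GABA-making enzymes did not pass the test in fed mice. *Slc32a1*, the vesicular GABA transporter, was at 92.2, 149, 91.7, 105 and 74.2 CPM in AGRP and 0.0553, 1.07, 1.1, 14.8 and 2.11 CPM in POMC libraries, a log2 fold change of 4.75 (SE 0.77, q = 6.23e-05). Without POMC replicate 4, the highest of its group, the value for *Slc32a1* was 6.54, and without POMC replicates 1 and 2 it was 4.10. *Slc17a6*, the vesicular glutamate transporter VGLUT2, was at 4.03, 6.83, 10, 2.85 and 5.57 CPM in AGRP and 180.2, 173, 212, 160.0 and 184 CPM in POMC libraries, a log2 fold change of −4.96 (SE 0.61, q = 7.58e-07). Neither gene overlapped between the groups. *Gad2*, which makes GABA from glutamate, was at 1627, 1687, 1417, 1597 and 1793 CPM in AGRP and 2152, 2219.7, 1655, 1918 and 1615 CPM in POMC libraries, a log2 fold change of −0.24 (q = 0.434) with an interval of −0.53 to 0.06. *Gad1* gave 0.40 (q = 0.168) with an interval of 0.07 to 0.74. It was at 263 to 373 CPM in AGRP and 214 to 257 CPM in POMC libraries, without overlap. In FD mice both enzymes were higher in AGRP neurons, *Gad1* at 1.04 (q = 2.13e-05) and *Gad2* at 0.67 (q = 0.0011). *Slc18a2*, the vesicular monoamine transporter, was at 6.64, 5.62, 7.55, 12.1 and 12.4 CPM in AGRP and 213, 171, 139, 158 and 158 CPM in POMC libraries, a log2 fold change of −4.24 (SE 0.27, q = 1.04e-12). *Th*, the first enzyme of dopamine synthesis, was under 8 CPM in every fed library, and *Slc6a3*, the dopamine transporter, under 3 CPM. Of the 23 tested genes of transmitter synthesis and transport, 4 were higher in AGRP (*Slc32a1*, *Glul*, *Slc1a1* and *Slc18a3*) and 3 in POMC neurons (*Slc17a6*, *Ache* and *Slc18a2*). That was 30.4% of the 23, against 7.57% of all genes tested.

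Receptors for hormones and for melanocortins differed in both directions. Of 37 tested in that list, which also holds receptors for NPY, gut and pancreas peptides, steroids, thyroid hormone and releasing hormones, 10 were higher in AGRP and 9 in POMC neurons. Of the 37, 51.4% were called, against 7.57% of all genes tested. *Ghsr*, the ghrelin receptor, was at 126, 143, 146, 131 and 271 CPM in AGRP and 0.442, 2.93, 4.28, 4.67 and 0.924 CPM in POMC libraries, a log2 fold change of 5.93 (SE 0.46, q = 8.01e-11). *Ghr*, the growth hormone receptor, was at 542, 585, 492, 555 and 641 CPM against 121, 97.9, 91.7, 85.6 and 161 CPM, a log2 fold change of 2.34 (SE 0.19, q = 1.41e-10). *Calcr*, the receptor for calcitonin and, with partner proteins, amylin, was at 386, 395, 389, 378 and 379 CPM in AGRP libraries, a narrow range, and at 0, 0.222, 1.14, 10.8 and 0.616 CPM in POMC libraries. POMC neurons had more *Prlr*, the prolactin receptor, at 405, 304, 405, 463 and 379.5 CPM against 25.3, 20.6, 13.5, 18.3 and 18.6 CPM, a log2 fold change of −4.34 (q = 2.21e-13). They also had more *Cckar*, the receptor for the gut peptide cholecystokinin, at 112, 80.3, 86.4, 99 and 95.7 CPM against 0.183 to 0.522 CPM in AGRP libraries, and more *Glp1r*, the GLP-1 receptor, at 66.6, 84.3, 82.3, 38.9 and 69.8 CPM against 3.2, 10.7, 0.426, 3.27 and 10.8 CPM.

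The leptin and insulin receptors were not among the genes that differed in fed mice. *Lepr*, the leptin receptor, was at 83.3, 56.2, 77.6, 103 and 135 CPM in AGRP and 82.9, 66.2, 53.3, 64.7 and 72.4 CPM in POMC libraries, a log2 fold change of 0.42 (q = 0.263) with an interval of 0.02 to 0.82. *Insr*, the insulin receptor, was at 149 to 185 and 123 to 171 CPM, a log2 fold change of 0.21 (q = 0.585) with an interval of −0.13 to 0.56. None of 12 tested leptin signalling genes passed by edgeR (2 at an unadjusted p under 0.05, *Lepr* and *Jak2*), and *Jak2*, the kinase bound to the leptin receptor, passed by DESeq2 and limma-voom. None of 8 AMPK subunits and kinases passed by edgeR, DESeq2 or limma-voom (1 at an unadjusted p under 0.05, *Prkab1*). Of 23 tested insulin signalling genes, 4 were higher in AGRP neurons, *Foxo1*, *Foxo3*, *Foxo4* and *Irs4*, and 3 in POMC neurons, *Igf1r*, *Pik3r1* and *Pik3r3*. They made up 30.4% of the 23, against 7.57% called over all genes tested. *Foxo1*, a forkhead factor that insulin signalling keeps out of the nucleus, was at 355, 234, 247, 279.8 and 481 CPM in AGRP and 9.78, 13.8, 32.9, 52.2 and 32.5 CPM in POMC libraries, a log2 fold change of 3.50 (SE 0.31, q = 1.11e-09). *Irs4*, an insulin receptor substrate, was abundant in both, at 2462 to 2790.2 CPM in AGRP and 1733 to 1944 CPM in POMC libraries, and differed by 0.48 (q = 0.0014).

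Receptors for the neurons' own peptides and for steroids differed as well. *Npy1r* and *Npy5r*, receptors for NPY that lie side by side in the genome, were higher in POMC neurons, *Npy1r* at 335, 398, 232, 184 and 308 CPM against 29.2, 31.1, 18.7, 42.6 and 72.6 CPM, and *Npy5r* with a log2 fold change of −1.75 (q = 0.00487) and overlapping libraries. *Npy2r*, the receptor through which NPY and PYY act on nerve terminals, was higher in AGRP neurons at 528, 510.1, 523, 651 and 484 CPM against 146, 134, 271, 150.2 and 179 CPM, a log2 fold change of 1.62 (SE 0.24, q = 1.94e-05). *Mc3r*, a melanocortin receptor, was at 57.9, 46, 50.8, 63.9 and 59.2 CPM in AGRP and 49.6, 34.8, 21.2, 21.5 and 15.7 CPM in POMC libraries and gave 0.96 (q = 0.143), and over 22 alternatives its q was between 0.0433, without POMC replicates 1 and 2, and 1, with ERCC scaling. *Mc4r* did not pass the count filter and was at most 4.83 CPM in any fed library. Among steroid and thyroid hormone receptors, *Esr1* (estrogen receptor alpha) was at 8.97 to 24.3 CPM in AGRP and 39 to 81.3 CPM in POMC libraries, and *Thrb*, a thyroid hormone receptor, was likewise higher in POMC neurons, whereas *Nr3c1*, the glucocorticoid receptor, was at 246 to 323 CPM in AGRP and 107 to 149 CPM in POMC libraries and *Nr3c2* was also higher in AGRP neurons. *Crhr1*, the receptor for corticotropin-releasing hormone, was at 13 to 26.2 CPM in AGRP libraries and at most 0.319 CPM in POMC libraries.

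Receptors for serotonin, histamine, noradrenaline and dopamine divided by subtype. Of 22 tested, AGRP neurons had more of 6 and POMC neurons more of 4. Together with acetylcholine receptors the list held 32, divided 7 and 5 (37.5% called, against 7.57% of all genes tested). AGRP neurons had more *Htr1a*, *Htr1b* and *Htr1f*, 3 members of the Gi-coupled serotonin 1 family, and *Htr1a* was at 41.7, 52.9, 49.1, 41.2 and 61.5 CPM against 3.59, 0.111, 9.59, 1.75 and 4.06 CPM, a log2 fold change of 3.68 (SE 0.71, q = 0.000642), and 4.38 without POMC replicate 3. *Htr1b* was at 10.5, 10.7, 10.5, 10.9 and 13.2 CPM in AGRP libraries with 1 count in all POMC libraries together, a ratio of normalized levels of 1214 (218 to 47958) with its 95% counting interval, and *Htr1f* was at least 147-fold higher in AGRP neurons, against 3 counts over the group. POMC neurons had more *Htr4*, a Gs-coupled serotonin receptor, at 26.1, 5.19, 13.8, 8.87 and 24.4 CPM against 2.11, 2.92, 0.791, 2.66 and 0.964 CPM. *Htr2c*, the serotonin receptor known in POMC neurons, was at 7.46, 18.6, 27.6, 8.18 and 24.2 CPM in POMC and 2.79, 3.85, 0.731, 0.142 and 0.214 CPM in AGRP libraries without overlap, but gave −3.47 (q = 0.0546). Over 22 alternatives its q was between 0.00166, in the cell-number set alone, and 0.199, with sorted cells as a covariate. *Hrh3*, an inhibitory histamine receptor, was at 114, 122, 120.1, 116 and 137 CPM in AGRP and 8.79, 12.4, 9.67, 10.9 and 8.11 CPM in POMC libraries, a log2 fold change of 3.61 (SE 0.33, q = 2.82e-09). For noradrenaline, *Adra1a* (2.88, q = 5.05e-06) was higher in AGRP and *Adra2a* (−3.50, q = 8.98e-05) and *Adra1b* were higher in POMC neurons. *Drd2*, a dopamine receptor, had 4 counts in all AGRP libraries and was at 4.97 to 13.2 CPM in POMC libraries. Of the nicotinic subunits, *Chrna7* was at 16, 53.8, 6.37, 43.5 and 16.5 CPM in POMC and 0.275, 0.551, 1.4, 1.23 and 0.696 CPM in AGRP libraries, and *Chrna4* was higher in AGRP neurons.

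Of 36 other neuropeptide receptors tested, 4 were higher in AGRP (*Sstr2*, *Nmbr*, *Avpr1a* and *Agtr1a*) and 9 in POMC neurons. Called were 36.1% of the 36, against 7.57% of all genes tested. *Prokr1*, a prokineticin receptor, was at 64.5, 94.6, 66.7, 88.7 and 72.3 CPM in POMC and 0.32, 0.661, 0.609, 0.806 and 1.34 CPM in AGRP libraries, a log2 fold change of −6.69 (SE 0.51, q = 4.17e-11). *Brs3*, a bombesin-like receptor linked to body weight, was at 59.1, 69.9, 22.2, 18.8 and 56.6 CPM in POMC and 0.137, 5.12, 2.8, 2.51 and 2.04 CPM in AGRP libraries. *Oprm1*, the mu opioid receptor, at which the POMC product beta-endorphin acts, was at 123, 78.9, 88.6, 118 and 84.1 CPM against 39.3, 52.6, 41.1, 48.3 and 55.1 CPM, and its locus overlaps *Ipcef1*, which was also higher in POMC neurons at −2.86. *Oprd1*, *Ntsr1*, *Nmur2*, *Hcrtr2*, *Oxtr* and *Cnr1* completed the 9, and all of these but *Cnr1* were between 2.74 and 68.4 CPM in POMC libraries and at 8.36 CPM or less in AGRP libraries.

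Of 44 tested glutamate, GABA and glycine receptor genes, 6 were higher in AGRP (*Gria4*, *Grid1*, *Gabra5*, *Gabre*, *Gabbr2* and *Glra2*) and 6 in POMC neurons (*Gria3*, *Grik3*, *Gabrb2* and *Gabrg3* among them), and none of 6 tested NMDA receptor genes passed by edgeR (0 at an unadjusted p under 0.05), DESeq2 or limma-voom. Over the 44 the share called was 27.3%, against 7.57% of all genes tested. The GABA receptor subunit *Gabre* was at 573, 505, 533, 610.3 and 572 CPM in AGRP and 279.6, 253, 249, 244 and 222 CPM in POMC libraries, and *Gabrg3* at 177, 177, 153, 230.2 and 153 and 401, 352, 425, 353 and 518 CPM. These 2 subunits thus differed in opposite directions, both without overlap, by 1.16 and −1.20 on the log2 scale.

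Ion channels differed in both directions. Of 72 tested potassium channel genes, 10 were higher in AGRP and 4 in POMC neurons, and of 51 sodium, calcium, HCN and TRP channel genes 6 and 5. The shares called were 19.4% and 21.6%, against 7.57% of all genes tested. *Kcnk9*, which encodes the two-pore leak channel TASK3, was at 85.1, 133, 107, 89.7 and 105 CPM in AGRP and 2.54, 0, 0.236, 1.54 and 1.95 CPM in POMC libraries, a log2 fold change of 6.42 (SE 0.71, q = 8.89e-08). *Trpc4*, a receptor-operated cation channel, was at 102, 161, 83.8, 95.4 and 203 CPM in AGRP and 13.3, 14.9, 28.9, 26.2 and 20.7 CPM in POMC libraries, and *Trpc6* was also higher in AGRP neurons, while *Trpc5* (35.6, 58.7, 89.7, 75.5 and 42.6 CPM in POMC against 24, 9.63, 18, 13.2 and 18.7 CPM in AGRP libraries) and *Trpc7* were higher in POMC neurons. *Cacna2d1*, an auxiliary calcium channel subunit, was at 114, 106, 132, 96.7 and 82.7 against 420.3, 416, 634, 508 and 486 CPM, a log2 fold change of −2.21 (SE 0.16, q = 3.05e-11). *Scn3a*, a sodium channel, gave 1.24 (q = 3.56e-05), *Kcnk2* 1.69 (q = 5.84e-05) and *Kcnj5*, a subunit of the channels opened by Gi-coupled receptors, 1.75 (q = 0.00138), whereas its partner subunit *Kcnj3* gave −1.34 (q = 0.00872). None of the 4 HCN pacemaker channels passed by edgeR (0 at an unadjusted p under 0.05), DESeq2 or limma-voom, nor did the KATP channel genes *Kcnj11* at 2.99 (q = 0.0823) and *Abcc8* at 0.33 (q = 0.78).

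Transcription factors differed in both directions, and several were near 0 in one cell type. Of 80 tested, 14 were higher in AGRP and 18 in POMC neurons. *Otp*, a homeodomain factor needed for several hypothalamic peptide neurons, was at 654, 849, 512, 521 and 569 CPM in AGRP and 0.111, 0.0741, 2.59, 1.81 and 1.9 CPM in POMC libraries, a log2 fold change of 8.89 (SE 0.69, q = 7.26e-11), and 8.19 without POMC replicates 1 and 2. *Bsx*, a homeodomain factor that acts on *Npy* and *Agrp*, was at 23.4, 37.8, 26.2, 47.3 and 46.5 CPM in AGRP and 0.0553, 1.41, 0.904, 0.159 and 0.0514 CPM in POMC libraries. *Nkx2-1*, a homeodomain factor that patterns the ventral hypothalamus, was at 110.3, 127, 57.5, 66.3 and 47.7 CPM in POMC and 0.229, 0.33, 0.365, 0.19 and 0 CPM in AGRP libraries, a log2 fold change of −8.50 (SE 0.62, q = 1.73e-11). *Nhlh2*, a basic helix-loop-helix factor linked to the *Pcsk1* gene, was at 40.2, 40.4, 75.7, 55.8 and 72 CPM in POMC libraries and at most 0.275 CPM in AGRP libraries. *Prdm12*, a zinc finger factor of *Pomc* neuron development, was at 105, 90.7, 118, 111 and 91 CPM in POMC and 1.92, 0.275, 0.426, 0 and 0 CPM in AGRP libraries. The locus of *Prdm12* overlaps *Gm13425*, which was higher in POMC neurons as well, and *Six3*, at 371, 237, 149, 172 and 122 CPM in POMC and 27.8, 57.6, 68, 35.3 and 27.4 CPM in AGRP libraries, overlaps *Six3os1*. In a count without strand, any reads that fitted both genes of a pair could not be assigned to either.

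*Isl1*, which acts on *Pomc* and is made in both neuron types, was at 111, 95.5, 79.7, 99.3 and 113 CPM in AGRP and 70, 73.2, 86.4, 133 and 86 CPM in POMC libraries, a log2 fold change of 0.15 (q = 0.757) with an interval of −0.23 to 0.54. *Tbx3*, a T-box factor of arcuate peptide neurons, gave −0.59 (q = 0.0474) with overlapping libraries and passed in 3 of the 10 fits lacking 1 fed library (q 0.0315 to 0.144). The 3 *Onecut* genes were all higher in POMC neurons, *Onecut2* at 14.6, 6.78, 23.7, 34.6 and 41.9 CPM against 3.2, 0.606, 0.731, 0 and 0.268 CPM, and *Onecut3* had no count in AGRP libraries and was at least 131-fold higher, against 3 counts over the group. *Sox1*, *Sox2*, *Sox5* and *Sox6* were higher in POMC neurons, and *Sox11*, *Mef2a*, *Mef2c*, *Nr2f2* and *Hey2* in AGRP neurons.

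Of 119 tested adhesion and guidance genes, 14 were higher in AGRP and 29 in POMC neurons, with a median log2 fold change of −0.24 against −0.01 for all genes. The share called was 36.1%, against 7.57% of all genes tested. Within the list, cadherins, protocadherins and contactins accounted for 5 and 14 of 34 (median −1.14). *Cdh13*, a cadherin held in the membrane by a lipid anchor, was at 3.75, 6.33, 9.13, 5.5 and 2.36 CPM in AGRP and 391, 337, 259, 243 and 313 CPM in POMC libraries, a log2 fold change of −5.84 (SE 0.31, q = 2.38e-14). *Tenm1*, a teneurin that binds latrophilins across synapses, was at 5.49, 4.4, 8.65, 9.2 and 0.964 CPM in AGRP and 529.5, 489, 684, 515 and 579.9 CPM in POMC libraries, a log2 fold change of −6.60 (SE 0.52, q = 8.29e-11), and *Tenm2*, *Tenm4* and the latrophilin *Lphn3* (−1.60, q = 5.75e-07) were higher in POMC neurons as well. AGRP neurons had more *Flrt3*, a leucine-rich repeat protein that also binds latrophilins and Unc5 receptors, at 251, 358, 276, 427 and 300.1 CPM against 61.9, 69.4, 72.2, 48.5 and 63.5 CPM, and more *Unc5d* (1.25, q = 2.22e-08) and *Pcdh9* (1.43, q = 6.65e-07). In the extracellular matrix 9 of 54 were higher in AGRP and 8 in POMC neurons (31.5% called, against 7.57% of all genes tested). *Cd44*, a hyaluronan receptor, was at 131, 169, 48.4, 104 and 87.5 CPM in POMC and 0.687, 5.23, 0.913, 0.806 and 0.321 CPM in AGRP libraries, *Fn1*, fibronectin, at 87.1, 116, 87.4, 64.4 and 116 and 1.19, 1.71, 1.89, 2.42 and 4.18 CPM, and *Tgfbi* at 35.9, 42.7, 16.5, 17.9 and 48.1 CPM in AGRP libraries and at most 0.221 CPM in POMC libraries. *Acan*, aggrecan of perineuronal nets, was at 7.28, 8.15, 3.9, 7.31 and 13.7 CPM in AGRP libraries with 1 count in all POMC libraries together. *Gpc4* was higher in AGRP (1.90, q = 4.68e-06) and *Gpc6* in POMC neurons (−3.32, q = 0.000228), both glypicans.

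*Rgs2*, which shortens Gq signalling, was at 748, 845, 788, 708 and 792 CPM in AGRP and 119, 109.8, 144, 113 and 86.1 CPM in POMC libraries, a log2 fold change of 2.76 (SE 0.19, q = 6.26e-12), and of 25 RGS and protein kinase C genes 4 were higher in AGRP and 1, *Rgs20* (−2.32, q = 0.000209), in POMC neurons. *Calb1*, calbindin, was at 16.5, 3.96, 11.9, 4.17 and 9.75 CPM in AGRP and 664, 611, 594, 632 and 557 CPM in POMC libraries, a log2 fold change of −6.04 (SE 0.34, q = 7.82e-14). Of 17 calcium-binding proteins 6 were higher in POMC and 2 (*Necab1* and *Scgn*) in AGRP neurons. Among 45 vesicle release genes, 5 were higher in AGRP, including *Syt6* at 67.4, 81.2, 77.2, 68 and 67.2 CPM against 0.166, 0.37, 18.5, 1.38 and 17.7 CPM, and 3 in POMC neurons, including *Syt4*, a synaptotagmin of dense-core vesicles, at 1526, 1413, 946, 1081 and 1154 CPM against 496, 559, 468, 437 and 524 CPM. *Syt17* passed in only 3 of the 10 fits that left out 1 fed library (q 0.0219 to 0.112). Of 22 immediate early genes, *Btg2* (2.14, q = 5.77e-05) was higher in AGRP and *Npas4* (−1.51, q = 0.0205) in POMC neurons, the latter in 7 of the 10 single-library fits (q 0.0136 to 0.0674). The share called was 9.09%, near the 7.57% of all genes tested, so these calls are read for the single genes only. Immediate early genes summed to 862 ± 258 CPM in AGRP and 823 ± 88.3 CPM in POMC libraries (adjusted p = 0.77, exact permutation test).

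Of 8 tested general neuronal genes, 5 were higher in POMC and 0 in AGRP neurons, where edgeR called 0 also at an unadjusted p under 0.05 and DESeq2 and limma-voom called 0. Their summed level was 3699.8 ± 125 CPM in AGRP and 5826 ± 488 CPM in POMC libraries (n = 5 each, adjusted p = 0.029 by an exact permutation test, lower in every AGRP library). *Stmn2*, a microtubule regulator of growing axons, was at 162, 172, 139, 146 and 152 CPM in AGRP and 617, 612, 597, 506 and 538 CPM in POMC libraries, a log2 fold change of −1.90 (SE 0.14, q = 1.49e-11). *Nefl*, the light neurofilament, was at 25.1, 28, 27.2, 31.8 and 42.5 CPM in AGRP and 148, 231, 347, 474 and 379.6 CPM in POMC libraries, and its deposited locus overlaps *Nefm*, also higher in POMC neurons. *Tubb3* (−1.21, q = 9.53e-05), *Snap25* and *Rbfox3* completed the 5, and *Map2*, *Elavl4* and *Uchl1* did not pass. These 5 were 62.5% of the 8, against 7.57% called over all genes tested. Of 31 proteasome subunits, *Psma3*, *Psmb3*, *Psmc1*, *Psmc2* and *Psmd14* were higher in POMC neurons and 0 in AGRP neurons by edgeR (0 at an unadjusted p under 0.05), DESeq2 and limma-voom, with a median log2 fold change of −0.47. The share of subunits called was 16.1%, against 7.57% of all genes tested. The summed regulatory particle was 1534 ± 89.0 CPM in AGRP and 1849 ± 75.4 CPM in POMC libraries (adjusted p = 0.029 by an exact permutation test, and 0.087 when summed as TPM). For the core particle the sums were 1030 ± 202 and 1501 ± 414 CPM (adjusted p = 0.105 by the same test, and 0.175 as TPM).

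**Figure D3:**
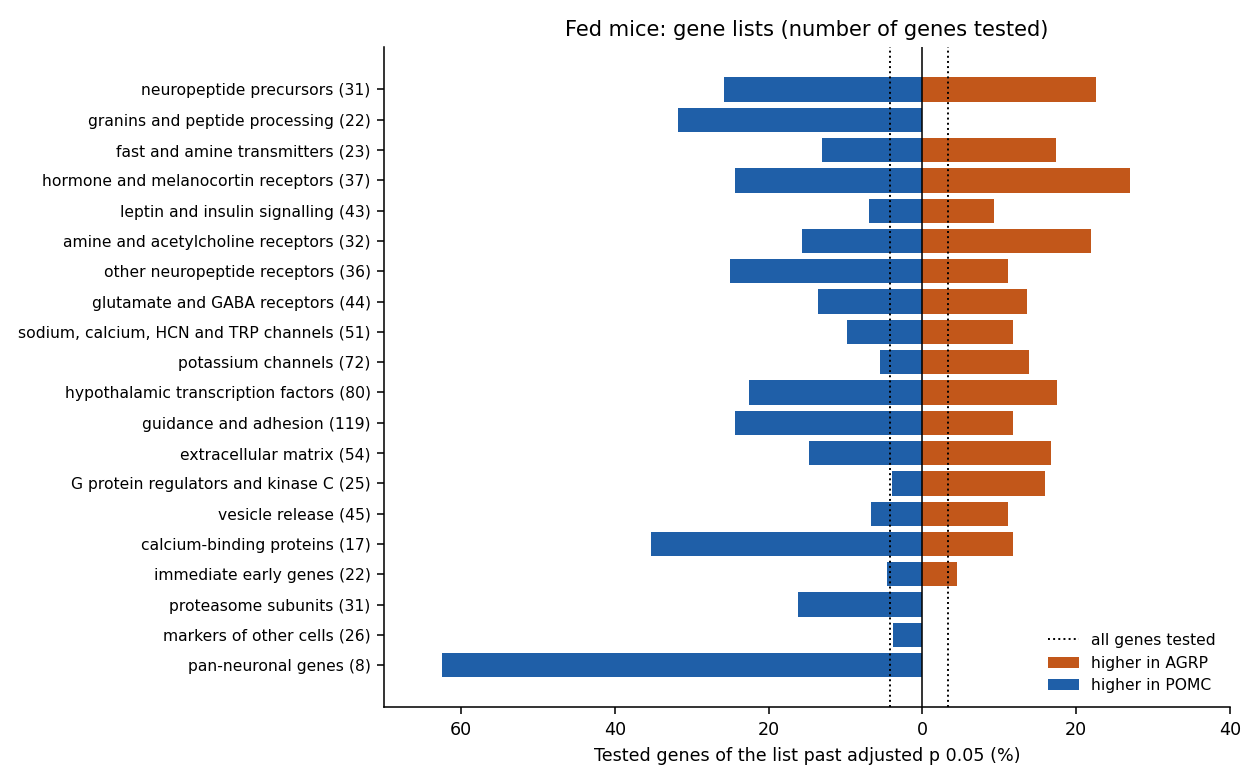
Share of the tested genes of each list that passed q under 0.05 in fed mice, higher in AGRP to the right (orange) and higher in POMC to the left (blue), with the number tested after each name. Dotted lines mark the shares over all genes tested, 3.33% and 4.24%. Most lists exceed both lines, peptide precursors and their receptors among them. Granins and peptide processing, proteasome subunits, general neuronal genes and markers of other cells have calls on the POMC side only.

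Outside the lists, the most abundant DEG without overlap on the AGRP side were *Dgkk*, a diacylglycerol kinase, at 1744, 1943, 1546, 2046 and 1599.7 CPM against 548, 595, 849, 869 and 796 CPM, *Tmem255a*, a membrane protein, at 1074 to 1314 against 457 to 606 CPM, *Thy1*, a neuronal surface antigen, at 229 to 310.3 against 67.8 to 145 CPM, and *Arhgap36* at 677, 914, 745, 837 and 992 CPM against 21.3, 26.3, 18.3, 63.7 and 26.5 CPM. *Arhgap36*, which restrains protein kinase A, differed most of these 4, with a log2 fold change of 4.74 (SE 0.30, q = 7.23e-13). On the POMC side *Asb4*, a ubiquitin ligase adaptor enriched in the arcuate nucleus, was at 1119, 1668, 769, 900.3 and 1155 CPM against 372, 391, 319, 385 and 401 CPM, a log2 fold change of −1.59 (SE 0.20, q = 7.79e-07). *Mir1906-1*, a microRNA gene, was at 28.2 to 59 CPM against 8.25 to 15.4 CPM.

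The same contrast was made in FD mice, in animals the fed contrast did not use. There 1339 of 8205 genes were DEG (16.3%), 682 toward AGRP (8.31%) and 657 toward POMC neurons (8.01%). At q under 0.05 alone, 18.6% of all genes tested passed there, 9.28% toward AGRP and 9.27% toward POMC neurons. Of the 663 fed DEG, 559 (84.3%) had the same direction in FD mice and 387 (58.4% of the fed and 28.9% of the FD DEG) were DEG there in the same direction, 166 toward AGRP and 221 toward POMC neurons. The share was 84.2% for fed DEG over 3 on the log2 scale (133 of 158) and 43.8% for those at 2 or less (165 of 377). A DEG must exceed 1 on the log2 scale, so larger differences pass more readily and nothing is read from this gradient. The 5 DEG with the highest unadjusted p of the interaction were *Nhlh2* (−8.86 and in FD mice −8.88, q = 3e-12), *Utrn*, the dystrophin relative utrophin (−3.74 and in FD mice −3.74, q = 8.13e-06), *Rasgrp1* (1.31 and in FD mice 1.31, q = 7.71e-05), *Gldc* (2.16 and in FD mice 2.16, q = 0.00495) and *Lphn3* (−1.60 and in FD mice −1.60, q = 1.12e-07). Without AGRP replicate 3 the fed value of *Utrn* was −4.44. *Gldc* passed in fed mice in 9 of the 10 single-library fits (q 0.0068 to 0.0568, the highest without AGRP replicate 4).

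**Figure D4:**
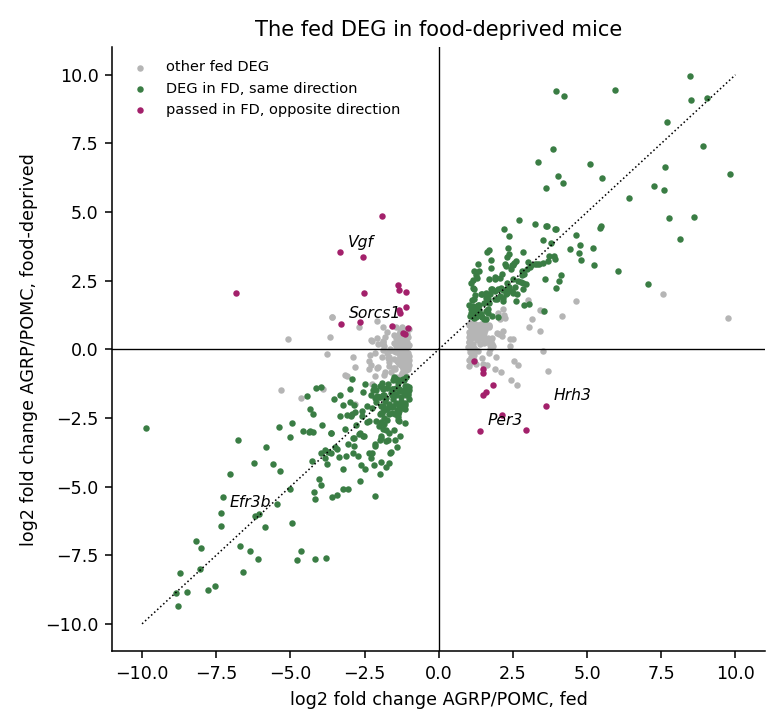
Log2 fold change AGRP over POMC of the 663 fed DEG, in fed mice (horizontal) and in FD mice (vertical), with the line of equality dotted. Green points (387) were DEG in both in the same direction, and magenta points (27) passed the test in FD mice in the opposite direction.

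The difference itself changed with food deprivation at q under 0.05 for 6.71% of all genes tested, for 935 of the 8205 genes over 20 CPM (11.4%) and for 187 of the 663 fed DEG (28.2%). The fed difference that chose the DEG is part of this measure, so nothing is read from their share. Of the fed DEG 27 passed in FD mice with the opposite direction, 10 of them with the AGRP side ahead in fed mice and 17 with the POMC side ahead. *Vgf* had the lowest q of these differences between conditions, with −6.86 (q = 2.63e-11). In FD mice *Vgf* was at 915, 2224, 1768, 1789.7, 1396 and 1010.3 CPM in AGRP and 82.4, 131, 129, 120.4 and 193 CPM in POMC libraries, a log2 fold change of 3.53 (q = 1.03e-09) where the fed value was −3.33. *Hrh3* was at 21.6, 16.1, 16.3, 6.45, 14.7 and 13.6 CPM in AGRP and 113, 22.8, 53.3, 55.5 and 64.7 CPM in POMC libraries of FD mice, a log2 fold change of −2.06 (q = 4.11e-06) where the fed value was 3.61. Thus every AGRP library was above every POMC library for *Hrh3* in fed mice, and every one was below in FD mice. *Sorcs1*, a sorting receptor, went from −3.30 to 0.92 (q = 0.0133), and *Ntng1*, a netrin-like adhesion protein, from −2.64 to 1.01 (q = 0.00175). *Per3*, a clock gene, went from 1.40 to −2.97 (q = 1.18e-07), and passed in 9 of the 10 single-library fits of fed mice (q 0.00385 to 0.0552, the highest without AGRP replicate 3). Among receptors, *Npy2r* gave −0.58 (q = 0.0714) in FD mice, while *Lepr*, not called in fed mice, was at 328 to 649 CPM in AGRP and 30.1 to 51.6 CPM in POMC libraries of FD mice, a log2 fold change of 3.51 (q = 9.02e-13), and the difference between conditions was −3.09 (q = 3.18e-08). The fed and the FD mice of a cell type were different animals, and the fit over all 4 groups shared 1 estimate of the spread.

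**Figure D5:**
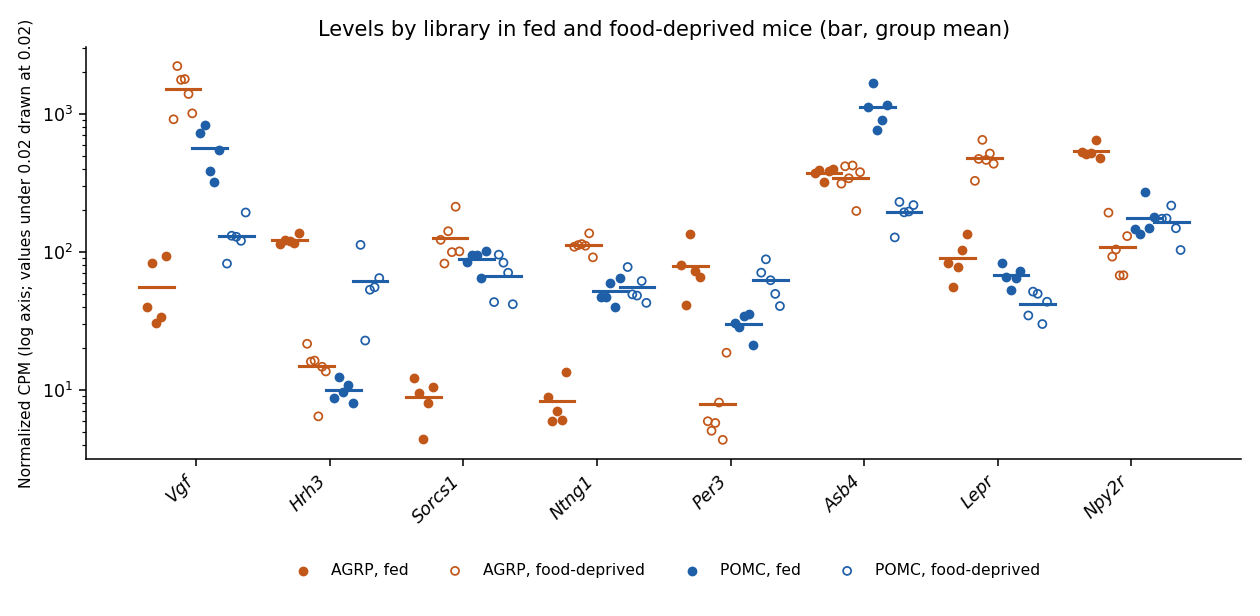
Normalized CPM (log axis) of 8 genes in each fed (filled) and FD (open) library of AGRP (orange) and POMC (blue) neurons, with a bar at each group mean. Values under 0.02 CPM are drawn at 0.02. For Vgf the AGRP libraries are the lowest in fed mice and the highest in FD mice, and for Hrh3 they are the highest in fed mice.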

How the data were processed

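Counts per gene were deposited by the authors, who, per the labels and the study's methods, trimmed reads with cutadapt 1.7.1, removed abundant (ribosomal, mitochondrial and other) reads with Bowtie2 2.1.0, aligned with STAR 2.4.0i to mm10 and counted with HTSeq 0.6.1p1 without strand. TPM values, deposited by the authors, were used for levels between genes. Dropped were 92 ERCC rows and 5 summary rows. Unassigned reads of no gene were 29.9 to 55.3% in fed libraries.

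Genes over 1 CPM in at least 3 libraries were fitted with the edgeR 4.0.16 quasi-likelihood test in all 4 groups with TMM scaling, two-sided, with Benjamini-Hochberg adjustment (q). The script was tested on simulated data. Sums were compared by two-sided exact permutation tests, which at 5 against 5 cannot go below 0.0079. Standard deviations are over 5 mice. The SE of a log2 fold change was derived from its size and the F statistic of the edgeR test, which takes in the spread between mice. Intervals of log2 fold changes come from this SE with a normal quantile, not a t quantile, and are somewhat narrow. Intervals of ratios and the limits of 3 counts cover counting error only.

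Members and lists were chosen with earlier results of these data known. Named were a set of fixed genes, up to 3 DEG without overlap per list and direction and 10 over all genes by TPM, and 5 each with the lowest and highest q of the interaction. Some genes that met these rules are not reported here. The neighbours of *Npy* and *Pomc* and the other genes were chosen after their values were seen. Promoters came from RefSeq, with motifs sought on both strands. Alternatives were DESeq2 1.42.0, limma-voom 3.58.1, other scalings, filters, thresholds, covariates and blocks, and leaving out libraries.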

Additional observations from a re-analysis of the deposited data

Results flagged for a closer look

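Within the 5 fed libraries of a cell type, 1 library stood apart from the other four by Dixon's test for 17 of the 236 groups of named values looked at, where chance flags about 1 in 20. AGRP replicate 1 was at 60.7 CPM for *Kcnj5* (nearest other library 76.1 CPM) and 1.92 CPM for *Prdm12* (nearest other library 0.426 CPM). AGRP replicate 2 was at 44.3 CPM for *Kcnh7* (nearest other library 19.5 CPM) and 5.23 CPM for *Cd44* (nearest other library 0.913 CPM). AGRP replicate 3 was at 8.77 CPM for *Adra2a* (nearest other library 3.08 CPM) and 24.2 CPM for *Utrn* (nearest other library 7.64 CPM). AGRP replicate 4 was at 651 CPM for *Npy2r* (nearest other library 528 CPM) and 110.4 CPM for *Adra1a* (nearest other library 78.6 CPM). AGRP replicate 5 was at 271 CPM for *Ghsr* (nearest other library 146 CPM) and 107 CPM for *Lphn3* (nearest other library 90.9 CPM). POMC replicate 3 was at 30.1 CPM for *Btg2* (nearest other library 13.6 CPM). POMC replicate 4 was at 14.8 CPM for *Slc32a1* (nearest other library 2.11 CPM), 133 CPM for *Isl1* (nearest other library 86.4 CPM), 10.8 CPM for *Calcr* (nearest other library 1.14 CPM), 82.6 CPM for *Rgs9* (nearest other library 61.1 CPM) and 63.7 CPM for *Arhgap36* (nearest other library 26.5 CPM). POMC replicate 5 was at 9.45 CPM for *Agrp* (nearest other library 3.04 CPM).

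For 32 of the 97 named DEG the difference between AGRP and POMC neurons itself differed between fed and FD mice (fed log2 fold change less FD log2 fold change, edgeR interaction over all genes tested, of which 6.71% passed). The count is partly fixed by the choice of genes, since DEG were chosen on the fed difference and 5 of them for the lowest q of this measure. Without POMC replicates 1 and 2, 24 of the 32 passed, and *Cartpt*, *Slc18a2*, *Grid1*, *Fn1*, *Syt17*, *Cplx2*, *Vsnl1* and *Arhgap36* did not (q = 0.0504 to 0.18). Among peptides and their processing it was −2.10 for *Cartpt* (q = 0.00876, but −0.76 with q = 0.18 without these 2 libraries, which were at 4460 and 4348 CPM), −2.74 for *Pdyn* (q = 0.000158), −6.86 for *Vgf* (q = 2.63e-11) and −1.32 for *Cpe* (q = 0.0249). Among receptors it was −3.50 for *Ghsr* (q = 0.00036), −1.35 for *Ghr* (q = 0.000804), 2.20 for *Npy2r* (q = 7.97e-05), 5.67 for *Hrh3* (q = 1.03e-09), 4.47 for *Htr1a* (q = 0.00263), 3.47 for *Brs3* (q = 0.00944) and 0.93 for *Grid1* (q = 0.0486). Among transporters, channels and release genes it was −1.21 for *Slc18a2* (q = 0.0236), 1.47 for *Cacnb4* (q = 0.000248), −0.73 for *Cacna2d1* (q = 0.0393), −1.03 for *Syt4* (q = 0.00098), 1.62 for *Syt17* (q = 0.0147), 1.30 for *Cplx2* (q = 0.0192) and 1.30 for *Vsnl1* (q = 0.0243). Among adhesion, matrix and cytoskeletal genes it was −1.10 for *Flrt3* (q = 0.0181), −2.28 for *Cdh13* (q = 0.000129), −3.65 for *Ntng1* (q = 3.03e-08), 3.77 for *Tgfbi* (q = 0.0102), −2.54 for *Fn1* (q = 0.0164) and −1.80 for *Tubb3* (q = 0.000106). Among transcription factors and signalling genes it was 3.20 for *Bsx* (q = 0.0354), −2.10 for *Rgs20* (q = 0.0173), 1.23 for *Arhgap36* (q = 0.0314), 0.94 for *Dgkk* (q = 0.00198) and −2.42 for *Asb4* (q = 8.6e-07). Among the others it was −1.36 for *Efr3b* (q = 0.00809), −4.22 for *Sorcs1* (q = 3.03e-08) and 4.37 for *Per3* (q = 8.6e-07).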

How the results depend on the processing

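The 663 DEG numbered 533 to 738 under 9 alternatives (DESeq2, limma-voom, RLE scaling, no count filter, the fed groups alone, postnatal day or sorted cells as a covariate, the spike-in set as a block, and POMC libraries of the 1 µl set only, added after the data were seen), 505 at q under 0.01, and 588 to 714 without any 1 fed library. In the cell-number set alone, also added later, with 2 libraries per cell type, they numbered 1205, with 794 higher in POMC neurons. Scaling per sorted cell by ERCC left 156 DEG (77 and 79), 297 genes at q under 0.05, and 145 with the same direction and 106 called in FD mice; the cause was not tested. A fold over 2 on the log2 scale, which removes smaller differences by construction, left 286 (132 and 154). Of 118 named genes tested, the 100 that passed kept their direction in all 22 alternative fits, and of the 18 that did not pass 6 changed it in at least 1 (*Pcsk2*, *Abcc8*, *Isl1*, *Dtnbos*, *Cenpo* and *Ptrhd1*). These fits reused the libraries in which the 100 had passed, so their kept direction is not separate support. Of the 100, 93 passed in every fit without 1 fed library and 44 with ERCC scaling. Without POMC replicates 1 and 2, *Pcsk1*, *Tbx3*, *Syt17*, *Npas4*, *Per3*, *Gldc* and *Ncoa1* lost the call. Summed as TPM, the ratio AGRP to POMC was 0.912 for the proteasome regulatory particle (adjusted p = 0.087, exact permutation test), 1.49 for oligodendrocyte markers (adjusted p = 0.029, exact permutation test) and 1.09 for all glial and vascular markers. Replicates with the same number did not deviate together (correlations −0.19 to 0.12), so they share only a number, and with a replicate block 634 DEG were called, 606 of them shared.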
